A study of Rattus norvegicus with 18 samples.

Results

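Oligodendrocyte progenitor cells (OPCs) are the dividing cells of the central nervous system that give rise to myelinating oligodendrocytes. Neonate rat OPCs that had been grown on a soft hydrogel were compared here with neonate rat OPCs taken straight from the sort, in 3 soft gel libraries against 3 primary libraries, 6 of the 18 libraries of the study. They were selected by their sample labels, and no measured value entered the selection. The primary libraries came from cells isolated by magnetic sorting (MACS). The cultured cells were sorted in the same way and kept on a laminin-coated gel with FGF and PDGF, 2 growth factors that keep OPCs dividing. The other 4 groups, each of 3 libraries, were neonate cells on a stiff gel and aged cells as primary, soft gel and stiff gel libraries. The labels give no gel stiffness, no time in culture and no age in days, and the medium is described identically for all samples, the uncultured ones included. Nothing says that the 3 libraries of a group are separate animals or cultures. The p-values therefore reflect only how much the libraries vary, and that variation could be technical.

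OPCs in the newborn brain carry the PDGF receptor alpha and the proteoglycan NG2, and depend on the transcription factors Olig1, Olig2 and Sox10. They divide in response to PDGF and FGF, and on leaving the cycle they pass through a committed stage and then switch on genes of myelin proteins and of the lipid synthesis that myelin needs. A magnetic sort can carry along cells of other types, so their markers are given too. In RNA of a bulk sample, fewer cells of a type and less RNA per cell cannot be told apart.

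Expression was given as TPM (transcript abundance relative to all transcripts of a library), which corrects for transcript length, and every level below is in scaled TPM, the deposited TPM divided by 1 factor per library. The libraries were shallow: the coverage in the files corresponded to 49308 to 87232 read pairs on exons in the primary and 56625 to 83289 in the soft gel libraries. Ribosomal RNA held 63.6% to 67.4% of the TPM of the primary and 73.7% to 85.9% of the soft gel libraries, so the share left for other genes differed between the groups without overlap. At this depth 1 read pair on a transcript of 2 kilobases was worth 2.87 to 6.70 scaled TPM, and values near that level cannot be told from 0. Genes above 0 numbered 7340 to 9729 in the 6 libraries. Olfactory receptor genes, which OPCs are not expected to use, were covered in 0.251% to 10.7% of cases in the primary and 2.01% to 18.9% in the soft gel libraries. The sorted identity of both groups was visible in the defining genes: Pdgfra was 53.7, 42.6 and 74.7 in the primary and 56.2, 64.6 and 51.9 in the soft gel libraries, and the groups overlapped.

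Of 15144 genes tested, 6 passed an adjusted p of 0.05 between soft gel and primary libraries (0.0396%; limma, Benjamini-Hochberg adjustment over all genes tested), 4 lower and 2 higher on the soft gel, and 552 genes had an unadjusted p under 0.05. Genes that passed are called below. The called genes that fell in culture were Ttr, Hba1, Fos and Dlx1, and those that rose were Rpl13 and Gpi. Differences are soft gel minus primary on the scale of log2(scaled TPM + 1), which understates the change of low genes. Each of the 6 differences kept its direction in all 21 alternative analyses, but the calls held in 10 to 14 of the 21.

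Ttr (chr18:15532964-15540177, rn6) encodes transthyretin, a thyroxine carrier made in the brain mainly by the choroid plexus. It was 561, 272 and 1209 scaled TPM in the primary libraries and 0, 24.0 and 0 in the soft gel libraries. All primary libraries lay far above all soft gel libraries, and the highest and lowest primary libraries differed several times over. The difference was -7.61 (SE 1.24, limma adjusted p = 0.0228), carried by an estimated 68.3, 17.6 and 97.4 read pairs in the primary libraries.

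Hba1 (chr10:15602794-15603649) encodes the alpha chain of haemoglobin in red blood cells. It was 99.4, 60.7 and 56.2 in the primary libraries and 0 in each of the soft gel libraries. The estimated read pairs were 9.61, 3.12 and 3.60 in the primary libraries. The fitted difference was -6.15 (SE 1.14, limma adjusted p = 0.0275), and against a floor of 3 read pairs over the soft gel group, equal to a mean of 17.3 scaled TPM, the mean was at least 4.16-fold lower on the soft gel. This bound covers counting error only.

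Fos (chr6:109300433-109303299) encodes a subunit of the AP-1 transcription factor and is the best known immediate early gene. It was 801, 1108 and 1031 in the primary libraries and 21.9, 17.3 and 66.3 in the soft gel libraries. No library of either group came near the other group. The difference was -5.00 (SE 0.85, limma adjusted p = 0.024), with an estimated 221, 163 and 188.5 read pairs against 5.23, 3.11 and 7.86.

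Dlx1 (chr3:58164931-58169521) encodes a homeobox factor of the developing ventral forebrain and of its inhibitory interneurons. It was 379, 432 and 398 in the primary libraries and 23.1, 15.1 and 33.2 in the soft gel libraries. Both groups were tight and far apart. The difference was -4.09 (SE 0.75, limma adjusted p = 0.0275).

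Gpi (chr1:90063411-90091287) encodes glucose-6-phosphate isomerase, the enzyme of the second step of glycolysis. It was 27.8, 5.23 and 18.1 in the primary libraries and 261, 184 and 99.5 in the soft gel libraries. Every soft gel library stood above every primary library, with a difference of 3.49 (SE 0.63, limma adjusted p = 0.0275). The call was lost without scaling (2.62, adjusted p = 0.287) and with quantile normalization (3.24, adjusted p = 0.227).

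Rpl13 encodes a protein of the large ribosomal subunit, and its entry in the annotation covers 2 loci whose reads cannot be assigned to either, so no position is given. It was 1302, 530.4 and 603 in the primary libraries and 3192, 2649 and 4015 in the soft gel libraries. The groups did not overlap, and the difference was 2.12 (SE 0.38, limma adjusted p = 0.0275). This call too was lost without scaling (1.19, adjusted p = 0.636) and with quantile normalization (1.72, adjusted p = 0.0838).

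**Figure D1:**
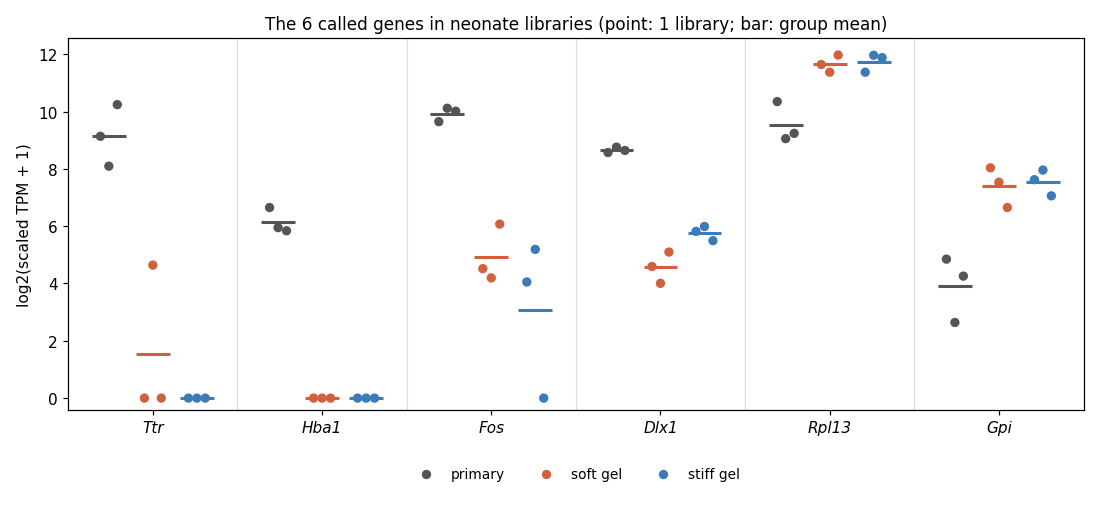
Level of the 6 called genes in each neonate library, on the log2(scaled TPM + 1) axis, with a point for each library and a bar for each group mean. The soft gel points of Ttr, Hba1, Fos and Dlx1 lie below all primary points and those of Rpl13 and Gpi above them; Fos is 17.3 to 66.3 scaled TPM on the soft gel against 801 to 1108 in the primary libraries.

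Gene groups were also described by how many members had no overlap between the 3 soft gel and the 3 primary libraries. Over all genes tested the 3 soft gel libraries all lay above the 3 primary for 626 genes (4.13%) and all below for 756 genes (4.99%). Low genes seldom separate. Among the 3581 genes with a mean of at least 10 scaled TPM over the 6 libraries, the soft gel libraries were all above for 312 (8.71%) and all below for 349 (9.75%), and among the 616 genes with a mean of at least 50 they were all above for 104 (16.9%) and all below for 69 (11.2%). Of 45 gene lists with 964 tested members, 39 held no called gene and 6 held 1 each. Among the lists farthest above these shares were immediate early genes and neuroblast and neuron genes on the lower side, and cholesterol synthesis, fatty acid synthesis and glycolysis on the higher side. The housekeeping list reached a similar share on the higher side, with 6 of 15 members higher and 1 lower. At a mean of at least 10 this was 6 and 1 of 11, so a rise of this size was not particular to the metabolic lists. The level of the higher lists moves with the scaling: without any scaling the median of all genes tested was -0.25 in place of 0, and 26 list medians above 0 became 7. The shares of all genes move too. Without scaling, 173 of all 15144 genes lay higher and 2017 lower. Leaving out 1 library gave 923 to 1428 higher and 1105 to 1366 lower.

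**Figure D2:**
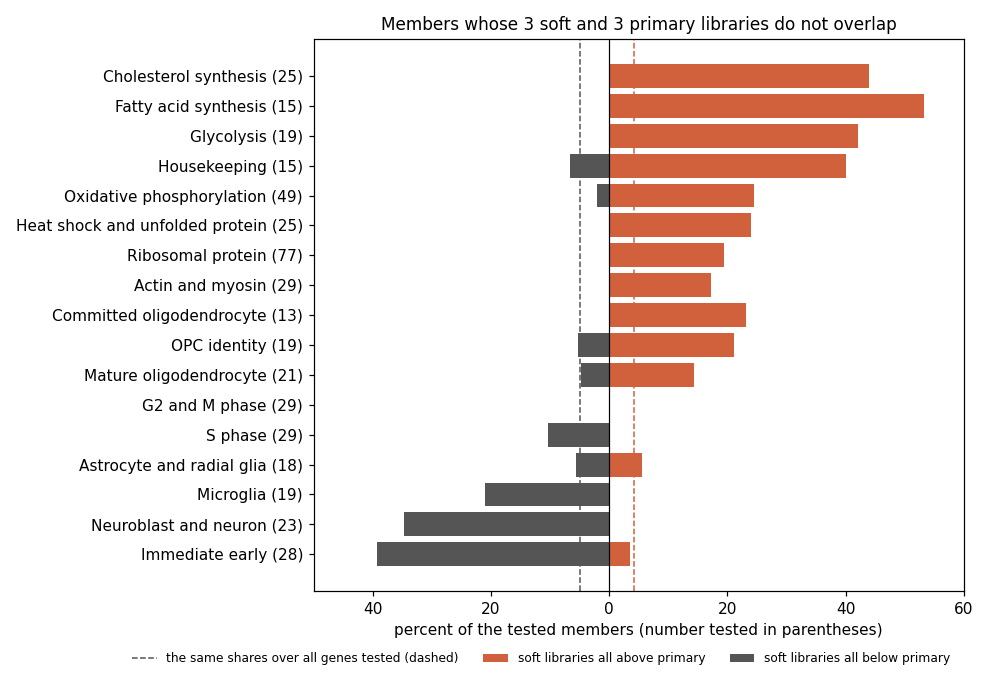
Share of the tested members of 17 gene lists, in percent on the horizontal axis, whose 3 soft gel libraries all lie above (right) or all below (left) the 3 primary libraries, with dashed lines at 4.13% and 4.99% for all genes tested. Cholesterol synthesis, with 11 of 25 members to the right, and immediate early genes, with 11 of 28 to the left, reach farther than the dashed lines. Without scaling the counts to the right shrink, to 5 of 25 for cholesterol synthesis and to 173 of all 15144 genes tested. Medians such as those of the OPC identity, ribosomal protein, housekeeping, heat shock and actin lists then fall below 0.

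Immediate early genes are transcribed within minutes of a stimulus without new protein synthesis, and many encode transcription factors. Of 28 such genes tested, Fos was called lower, 11 lay lower on the soft gel in every library and 1 lay higher, against 4.99% and 4.13% of all genes, and 9 had an unadjusted p under 0.05. The median difference of the list was -1.26, against 0 for all genes tested, and lay below 0 under each scaling tried. Among the 14 members with a mean of at least 10, 10 lay lower in every library and none higher, against 9.75% and 8.71% of genes at that level. Their summed level was 1627 to 2232 in the primary and 330.2 to 469 in the soft gel libraries.

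Fosb, a second Fos family member, was 35.2, 40.9 and 30.8 in the primary and 0, 7.97 and 2.02 in the soft gel libraries (difference -3.60, SE 1.13). Jun, the usual AP-1 partner of Fos, was 56.0, 41.4 and 53.8 against 11.4, 17.9 and 10.7 (-1.86, SE 0.62). Ier2, a short nuclear early response gene, was 74.1, 265 and 157 against 28.1, 21.4 and 8.61 (-2.99, SE 1.25). For each of these genes the lowest primary library stood above the highest soft gel library, and none was called.

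Btg2, an antiproliferative early gene, was 81.6, 96.9 and 74.5 in the primary and 16.0, 28.7 and 0 in the soft gel libraries (-3.41, SE 0.98). Egr1, a zinc finger factor induced by growth factors and depolarisation, was 199, 303 and 188 against 41.8, 139.9 and 54.4 (-1.70, SE 1.12). Cyr61, a matrix protein that is also a target of the mechanosensitive factors YAP and TAZ, was 8.99, 15.4 and 44.3 against 0 in all soft gel libraries. Egr1 in soft gel replicate 2 came closest to the primary range without reaching it. Myc, which growth factors induce, was the member that lay higher in every soft gel library, at 5.48, 10.3 and 10.5 against 3.06, 4.48 and 0. Fosl1, a Fos relative with slower kinetics, was 66.5, 93.9 and 78.8 against 69.3, 69.5 and 68.9, and the groups overlapped.

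Jund, a Jun relative that most cells hold at a steady level, was 103, 90.6 and 93.5 in the primary and 56.2, 56.5 and 69.8 in the soft gel libraries, a small separation without overlap (-0.65, SE 0.62). Its promoter is shown because it holds the cyclic AMP response element, the letters TGACGTCA, through which CREB family factors are known to act on early genes. The RefSeq window of 250 bases before the start of the gene on GRCr8 is chr16:18769772-18770021 on the minus strand, with the match in capitals.
Jund: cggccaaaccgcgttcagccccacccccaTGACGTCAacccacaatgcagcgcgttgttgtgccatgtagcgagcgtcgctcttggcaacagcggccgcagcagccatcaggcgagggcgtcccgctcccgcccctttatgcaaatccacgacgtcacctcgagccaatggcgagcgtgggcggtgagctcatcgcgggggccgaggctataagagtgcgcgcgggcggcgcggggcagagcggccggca
The element was searched on both strands in the same window of every gene with a RefSeq promoter, and 490 of 27457 (1.78%) held it. Promoters were found for 19 of the 28 early genes, too few for a statement on the list. Of these 19, 5 held the letters (Jund, Ier2, Btg2, Dusp1 and Maff). A match describes the letters only.

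Markers of cells other than OPCs were present in the primary libraries. The summed levels of neuroblast, microglial, blood and choroid plexus markers were lower in every soft gel library, and those of astrocyte and mural markers were higher with scaling and overlapped without it. Of 23 neuroblast and neuron genes tested, Dlx1 was called lower and 6 had an unadjusted p under 0.05. In every soft gel library 8 lay lower and none higher, against 4.99% and 4.13% of all genes. The median difference was -0.84, or -0.46 without soft gel replicate 1, and was below 0 under each scaling tried. At a mean of at least 10, 5 of 11 members lay lower in every library, against 9.75% of genes at that level. The summed level of the list was 842 to 1184 in the primary, 217 to 302 in the soft gel and 260.0 to 456 in the stiff gel libraries.

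Dlx2, the neighbour and close relative of Dlx1, was 246, 129 and 119.7 in the primary and 11.9, 2.45 and 13.1 in the soft gel libraries (-4.20, SE 1.08, limma adjusted p = 0.372). Dcx, a microtubule protein of migrating neuroblasts, was 43.6, 21.5 and 41.4 against 9.27, 5.39 and 6.51. Stmn2, a tubulin-binding protein of growing axons, was 61, 32.4 and 69.2 against 2.99, 0 and 2.54. Each of these genes separated the groups completely without being called. Tubb3, the neuronal beta tubulin, was 104, 11 and 18.8 against 0, 3.30 and 0, with primary replicate 1 far above the others. Sp9, a factor of interneuron precursors, was 10.8, 6.60 and 9.31 against 0 in all soft gel libraries. Map2, a dendrite protein, was 104, 55.4 and 68.3 against 71.3, 51.0 and 54.8 and overlapped. Dlx5, a further relative of Dlx1, read at most 7.28 in any of the 6 libraries and overlapped too.

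Microglia are the resident macrophages of the brain. None of 19 microglial genes tested was called by limma (5 had an unadjusted p under 0.05). In every soft gel library 4 lay lower and none higher, against 4.99% and 4.13% of all genes. At a mean of at least 10, 2 of 4 lay lower, against 9.75% of genes at that level. The median difference was -1.69. Without primary replicate 3 it was -0.83 and 5 lay lower, beside 1352 of all 15144 genes. P2ry12, a nucleotide receptor typical of resting microglia, was 38.7, 48.2 and 64.8 in the primary and 2.31, 0 and 0 in the soft gel libraries (-5.08, SE 1.06, limma adjusted p = 0.0964). Cx3cr1, the fractalkine receptor, was 17.0, 7.97 and 19.2 against 0 in all soft gel libraries. Csf1r, the receptor on which microglial survival depends, was 20.7, 13.7 and 33.3 against 5.73, 5.92 and 1.78. These receptors separated the groups in every library. The summed level of the list was 157 to 361 in the primary and 53.4 to 122 in the soft gel libraries. Tmem119, a marker that separates microglia from other macrophages, was at 0 in all primary libraries. Ccl3, a chemokine that microglia release, was 44.6, 106 and 78.4 against 0, 0 and 33.9, and just missed the threshold (-4.48, SE 0.88, limma adjusted p = 0.0501). It was 1 of 2 members of 22 cytokine and chemokine genes that lay lower in every soft gel library, with none higher. The shares of all genes were 4.99% lower and 4.13% higher.

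Red blood cell genes followed Hba1 in part. Alas2, the erythroid enzyme of haem synthesis, was 18.9, 34.4 and 12.2 in the primary and 0, 4.59 and 1.70 in the soft gel libraries. Hbb-b1, a beta chain entry with several loci, was 0, 16.9 and 0 against 0, 6.92 and 0. The summed blood list was 68.4 to 118 in the primary and 0 to 11.5 in the soft gel libraries, and Hba1 made up most of it in the primary libraries. Ttr likewise dominated the primary sum of the ependymal and choroid plexus list, whose sum was 324 to 1291 against 35 to 98.9. Of the other members, the choroid plexus folate receptor Folr1 and the ciliary gene Rsph1 were at 0 in all 6 libraries, and Pltp and Enpp2 overlapped between the groups.

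Endothelial genes were near the counting limit, with a summed level of 41.8 to 72.6 in the primary and 17.4 to 63.4 in the soft gel libraries. Cldn5, the defining tight junction gene of brain endothelium, was at 0 in all 6 libraries. In the mural and fibroblast list no member separated the groups. The summed level of that list was 14.9 to 33.2 in the primary and 34.9 to 44.5 in the soft gel libraries. Of 18 astrocyte and radial glia genes 1 lay higher and 1 lower in every library, near the share of all genes, and their summed level was 435 to 512 in the primary and 559 to 1213 in the soft gel libraries. Gfap, the intermediate filament of astrocytes, was the higher one, at 5.13, 3.92 and 3.16 in the primary and 43.7, 108 and 192 in the soft gel libraries (4.29, SE 1.09, limma adjusted p = 0.359). Gja1, the astrocyte gap junction protein, was the lower one, at 41.3, 34.9 and 52.7 against 20.9, 29.5 and 10.2. The part of these other cells in the results for Ttr, Hba1 and Dlx1 was not tested.

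**Figure D3:**
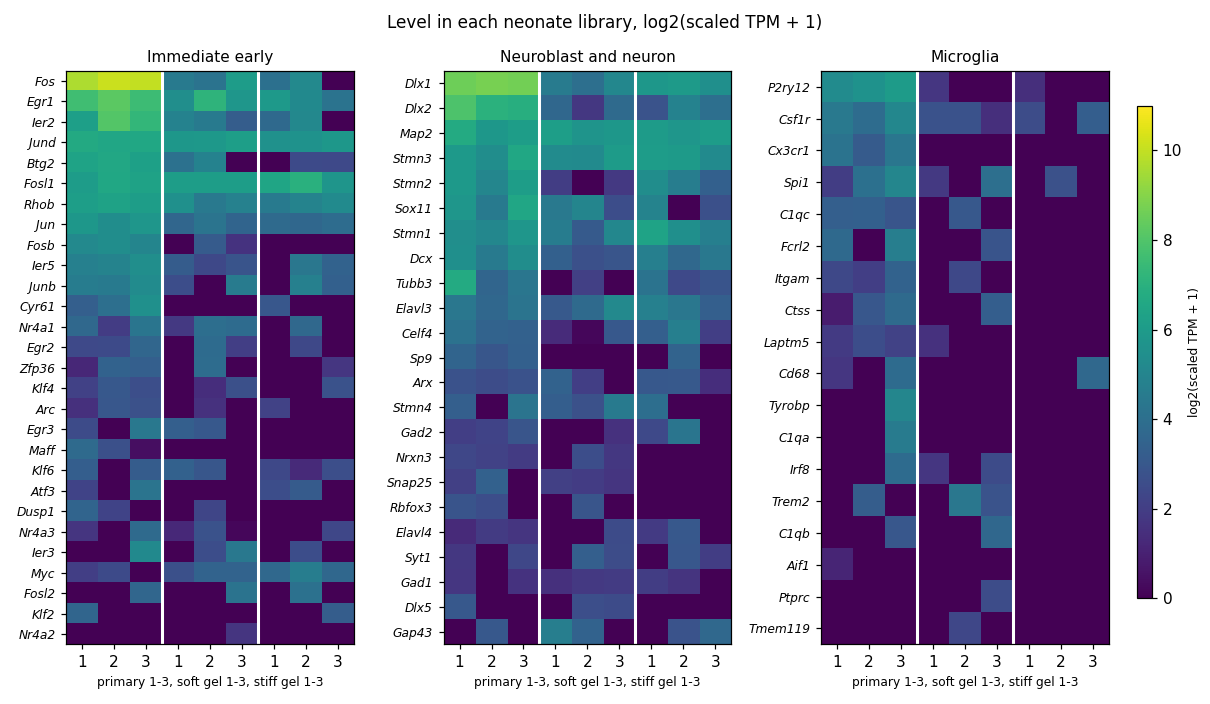
Level of the immediate early, neuroblast and neuron, and microglial genes reported, in each neonate library, as log2(scaled TPM + 1) in colour, with primary, soft gel and stiff gel replicates 1 to 3 as columns and white lines between the groups. Fos, Dlx1, Dlx2 and P2ry12 are each brighter in all primary columns than in any soft gel column, whereas Fosl1 and Map2 look alike in both.

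Genes of cholesterol and fatty acid synthesis lay higher on the soft gel. These pathways share the SREBP transcription factors, which sense sterol supply, and oligodendrocyte lineage cells use both to build membrane. Of 25 cholesterol genes tested none was called by limma (5 had an unadjusted p under 0.05), 11 lay higher in every soft gel library and none lower, and the median difference was 1.38, or 0.87 without primary replicate 2 and 0.54 without scaling, where 5 lay higher and 3 lower. Of all 15144 genes, 173 lay higher and 2017 lower without scaling. At a mean of at least 10, 8 of 18 cholesterol genes lay higher, against 8.71% of genes at that level. In the fatty acid list 8 of 15 lay higher in every soft gel library and none lower, against 4.13% and 4.99% of all genes. At a mean of at least 10, 7 of 13 lay higher, against 8.71% of genes at that level. The median was 1.08, or 0.18 without scaling, where 2 lay higher and 1 lower. No fatty acid gene was called by limma, and 4 had an unadjusted p under 0.05.

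Fdps (chr2:188403595-188413219), which makes farnesyl diphosphate ahead of the sterol branch, was 119.8, 95.5 and 144 in the primary and 515, 617 and 758 in the soft gel libraries. It had the narrowest error of the list (2.39, SE 0.57, limma adjusted p = 0.289) and was called in 5 of the 21 alternatives. Msmo1 (chr16:26859441-26875880), a sterol demethylating oxidase, was 0 in all primary libraries and 8.40, 14.1 and 29.6 in the soft gel libraries. Acat2, which joins acetyl units at the entry of the pathway, was 19.6, 30.8 and 27.4 against 107, 154 and 104. In each of these genes the soft gel libraries were all above the primary.

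Insig1, which holds SREBP in the endoplasmic reticulum and is itself an SREBP target, was 31.9, 47.4 and 20.9 in the primary and 144, 73.2 and 109 in the soft gel libraries. The groups did not overlap. Not every step of the pathway separated them: Sqle, the squalene epoxidase, was 92.9, 97.4 and 79.2 against 84.9, 47.3 and 96.4 and Idi1, an isomerase, was 5.84, 25.9 and 12.2 against 6.50, 0 and 13.3, both with overlap.

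Among fatty acid genes, Scd2, a desaturase abundant in brain, was 106, 95.9 and 134 in the primary and 319.8, 368 and 264 in the soft gel libraries. Scd1, its relative, was 1.26, 0 and 0 against 11.3, 28.3 and 15.3. Acly, which makes cytosolic acetyl-CoA from citrate, was 55.4, 38.6 and 92.2 against 175, 148 and 156. Fasn, the fatty acid synthase, was 37.0, 21.3 and 26.3 against 52.1, 51.7 and 76.5, and Me1, the malic enzyme that supplies NADPH, was 7.28, 0 and 5.48 against 20.4, 37.4 and 27.9. None of these overlapped and none was called.

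The promoters of Fdps and Msmo1 are shown because they carry the CCAAT box, bound by NF-Y, a known partner of SREBP at sterol genes. Both are RefSeq windows of 250 bases before the start on GRCr8, chr2:176804817-176805066 on the minus strand for Fdps and chr16:29746863-29747112 on the plus strand for Msmo1, with CCAAT or its reverse complement ATTGG in capitals.
Fdps: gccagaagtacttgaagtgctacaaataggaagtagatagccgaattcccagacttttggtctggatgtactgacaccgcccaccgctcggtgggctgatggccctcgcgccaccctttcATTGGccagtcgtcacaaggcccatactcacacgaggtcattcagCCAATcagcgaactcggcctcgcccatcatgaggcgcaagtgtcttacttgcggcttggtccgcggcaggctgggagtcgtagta
Msmo1: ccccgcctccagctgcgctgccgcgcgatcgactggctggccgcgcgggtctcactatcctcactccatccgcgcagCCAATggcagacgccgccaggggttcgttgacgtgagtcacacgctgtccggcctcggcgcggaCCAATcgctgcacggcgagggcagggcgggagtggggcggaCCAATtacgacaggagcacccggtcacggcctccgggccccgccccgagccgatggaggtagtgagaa
Fdps held 2 matches and Msmo1 held 3. The letters occurred on either strand in 9920 of 27457 promoter windows (36.1%) and in 14 of the 17 cholesterol genes with a promoter in the RefSeq table, but 17 of 25 is too few for a statement on the list. The sterol regulatory element TCACNCCAC was in 299 of all windows (1.09%) and in 0 of those 17, which says only that these letters were not in the windows.

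Glycolysis, the cytosolic breakdown of glucose to pyruvate, held the called gene Gpi. Of 19 genes tested 8 lay higher in every soft gel library and none lower, 6 had an unadjusted p under 0.05, and the median difference was 1.09, or 0.18 without scaling, where 3 lay higher and 1 lower. Without soft gel replicate 3 the median was 1.70 and 13 lay higher, and without primary replicate 2 it was 0.72. Of all 15144 genes, 173 lay higher and 2017 lower without scaling, and 1313 lay higher without soft gel replicate 3. At a mean of at least 50, 5 of 6 members lay higher, against 16.9% of genes at that level. Their summed level was 596 to 862 in the primary and 1369 to 2529 in the soft gel libraries, and without scaling soft gel replicate 3 lay below the primary libraries.

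Ldha (chr1:102900288-102909707), the lactate dehydrogenase subunit that turns pyruvate to lactate, was 5.80, 6.61 and 5.31 in the primary and 181, 118 and 117 in the soft gel libraries. This was the widest separation of the list (4.31, SE 1.06, limma adjusted p = 0.304), on an estimated 1.61, 0.977 and 0.977 read pairs in the primary against 43.5, 21.3 and 13.9 in the soft gel libraries. Eno1, the enolase, was 192, 312 and 386 against 1159, 981 and 608. Pgam1, the mutase before it, was 9.04, 10.2 and 35.2 against 59.8, 49.6 and 46.5. Aldoa, the aldolase, was 46.0, 38.2 and 84.5 against 145, 168 and 100.2. All lay higher on the soft gel in every library, and soft gel replicate 3 was the lowest soft gel library for Gpi, Eno1, Aldoa and Pgam1. Pkm, the pyruvate kinase, was 82.8, 37.9 and 95.7 against 242, 199 and 62.0, with replicate 3 inside the primary range.

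The promoter of Ldha is shown because it holds the letters ACGTG, the core shared by sites for HIF-1 and, as CACGTG, for Myc and related factors. Its RefSeq window of 250 bases before the start is chr1:106507842-106508091 on the plus strand of GRCr8, with the matches on either strand in capitals.
Ldha: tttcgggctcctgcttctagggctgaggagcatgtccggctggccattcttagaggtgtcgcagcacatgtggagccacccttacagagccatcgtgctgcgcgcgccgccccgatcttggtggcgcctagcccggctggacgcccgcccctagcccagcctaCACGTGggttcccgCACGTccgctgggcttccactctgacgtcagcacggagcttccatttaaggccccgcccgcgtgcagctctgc
There were 3 matches, of which the CACGTG counts on both strands. ACGTG was in 4959 of 27457 windows (18.1%), CACGTG, which contains it, in 1698 (6.18%). Of the 19 glycolysis genes 17 had a promoter in the table, too few for a statement on the list. Of these 17, 9 (52.9%) held ACGTG and 1 (5.88%) held CACGTG. A match describes the letters only. Of 17 other genes that respond to low oxygen, 1 lay higher and 1 lower in every soft gel library, against 4.13% and 4.99% of all genes. The median of these 17 genes was 0, or 1.26 with thinned libraries. Their summed level was 83.4 to 87.4 in the primary libraries and 228, 204 and 59.98 in soft gel replicates 1, 2 and 3, so 2 soft gel libraries lay above the primary range and 1 below it. Without soft gel replicate 3, 5 lay higher and 1 lower, beside 1313 and 1105 of all 15144 genes in the libraries left.

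**Figure D4:**
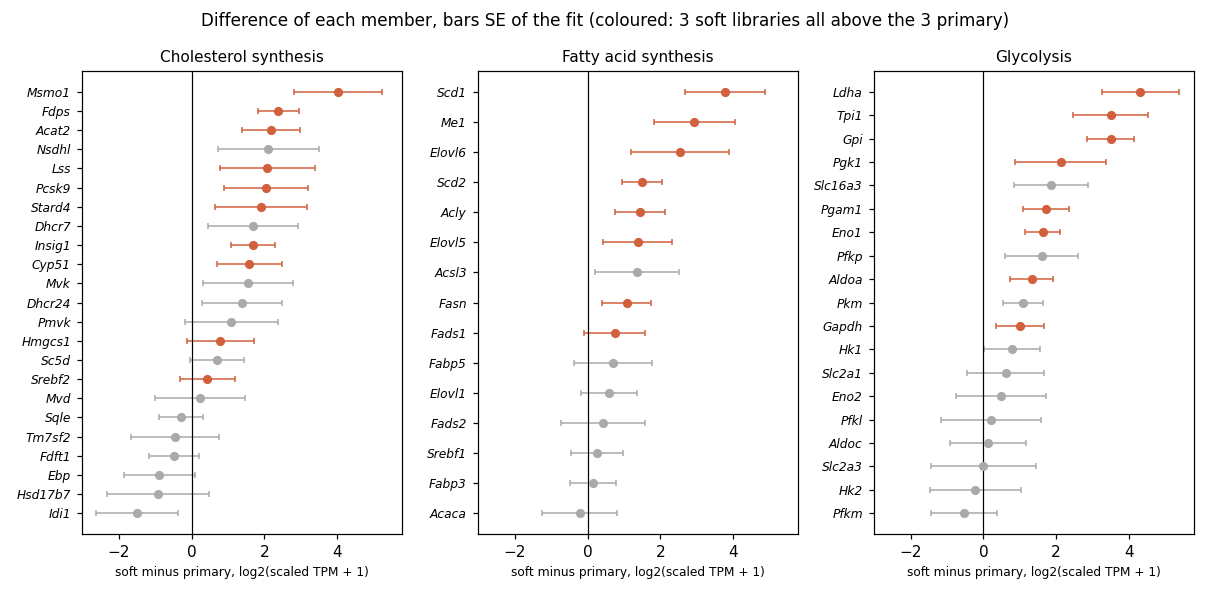
Difference between soft gel and primary libraries for the cholesterol, fatty acid and glycolysis genes reported, soft gel minus primary in log2(scaled TPM + 1), with the standard error of the fit as bars; coloured genes had all soft gel libraries above all primary ones. Most points lie right of 0, from Ldha at 4.31 down to Idi1 at -1.50; without scaling the 3 medians fall to 0.54, 0.18 and 0.18 and Hmgcs1 and Srebf2 turn below 0.

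Nuclear-encoded subunits of oxidative phosphorylation had 12 of 49 tested members higher in every soft gel library and 1 lower, with a median of 0.83, or 0.11 without scaling, where 2 lay higher and 3 lower. None was called by limma, and 8 had an unadjusted p under 0.05. At a mean of at least 10, 10 of 34 lay higher and 1 lower, against 8.71% and 9.75% of genes at that level. Cox4i1, a subunit of cytochrome oxidase, was 35.3, 57.5 and 62.3 in the primary and 159, 104 and 285 in the soft gel libraries. Atp5e, a subunit of the ATP synthase, was 115, 67.8 and 51.7 against 192, 227 and 572. Both separated the groups, with soft gel replicate 3 highest. The member that lay lower was Ndufb10, a complex I subunit, at 36.7, 62.8 and 33.6 against 12.4, 19.5 and 7.98.

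Ribosomal protein genes, the list of Rpl13, had 15 of 77 tested members higher in every soft gel library and none lower. At a mean of at least 50 this was 14 of 61, against 16.9% of all genes at that level, so the share was little above the background. Their median was 0.52 but -0.39 without scaling, where 2 lay higher and 3 lower. Rps13, of the small subunit and the most abundant of the list, was 4822, 8408 and 8507 in the primary and 9008, 7449 and 9084 in the soft gel libraries, with overlap. Of 29 translation factors 4 lay higher and 1 lower, or 12 and 4 without soft gel replicate 3, beside 1313 and 1105 of all 15144 genes. Eif4a1, the RNA helicase of initiation, was 95.0, 78.7 and 119 against 201, 173 and 210.0. Of 29 proteasome genes 5 lay higher and 1 lower. Psmb5, a catalytic subunit, was 96.0, 99.4 and 86.3 against 141, 212 and 279. The medians of the translation factor and proteasome lists were above 0 with scaling and -0.49 and -0.16 without it. Of 25 heat shock and unfolded protein genes 6 lay higher and none lower, with a median of 0.36 that became -0.35 without scaling and 0.01 without primary replicate 1. At a mean of at least 10, 4 of 22 translation factors lay higher and 0 lower. This was 5 and 1 of 21 for proteasome and 5 and 0 of 13 for heat shock genes, against 8.71% and 9.75% of genes at that level.

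Actin and myosin genes had 5 of 29 tested members higher in every soft gel library and none lower, with a median of 0.69 that turned to -0.22 without scaling, where none lay higher and 7 lower. Without soft gel replicate 1, 5 lay higher and 5 lower. Of all 15144 genes, 173 lay higher and 2017 lower without scaling, and 1428 and 1182 without that replicate. Actb, beta actin, was 1867, 1816 and 2479 in the primary and 3307, 3881 and 2844 in the soft gel libraries, a difference of 0.71 that turned to -0.22 without scaling. Cfl1, the actin-severing cofilin, was 128, 109 and 246 against 476, 253 and 431. Housekeeping genes as a list had 6 of 15 higher and 1 lower, with a median of 0.51 that became -0.22 without scaling. The unscaled medians of both lists equalled the value of Actb, so they are not separate results. At a mean of at least 10, 5 of 21 actin and myosin genes lay higher and 0 lower, and 6 and 1 of 11 housekeeping genes. The shares of all genes at that level were 8.71% and 9.75%. Tubb5, a beta tubulin, was the member that lay lower, at 1521, 1449 and 1590.4 against 952, 1039.6 and 529.

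Genes known to respond to the stiffness of a surface were read next. Of 16 YAP and TAZ target genes tested none was called by limma (1 had an unadjusted p under 0.05), and 3 lay lower in every soft gel library and none higher, against 4.99% and 4.13% of all genes. At a mean of at least 10 this was 2 of 6, against 9.75%. The median of -0.61 became -0.32 without primary replicate 1, -0.18 without primary replicate 3 and 0.02 with thinned libraries. The summed level of the list was 134 to 145 in the primary and 88.8 to 135 in the soft gel libraries. On the stiff gel it was 55.8 to 79.6, below each soft gel library. There too 3 of 16 members lay below the primary range in every library and none above, with a median of -1.025. Over all 15144 genes 917 lay lower and 592 higher on the stiff gel. Cyr61, given above, was among those that lay lower on the soft gel. Fstl1, a secreted follistatin relative, was another, at 19, 18.9 and 20.5 in the primary and 0, 7.46 and 4.85 in the soft gel libraries. Piezo1, the stretch-gated channel, was 0.483, 6.24 and 2.69 against 2.39, 5.38 and 1.68, with overlap. Of 14 mechanosensitive channel genes 2 lay lower and none higher, none with a mean of at least 10. Trpc6, a cation channel, was among them at 7.06, 10.4 and 5.77 against 0 in all soft gel libraries. Of 24 integrin and adhesion genes 3 lay higher and 2 lower, and at a mean of at least 10 this was 2 and 1 of 10. Fermt2, the integrin activator kindlin-2, was 5.78, 11.5 and 10.5 against 33.1, 20.6 and 25.4. Of 28 other matrix genes 4 lay higher and 1 lower, and at a mean of at least 10 this was 2 and 0 of 11. The shares of all genes at that level were 8.71% higher and 9.75% lower. Mmp15, a membrane-bound matrix protease, was 50.1, 36.1 and 36.4 against 137, 103 and 70.3.

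Of the genes of OPC identity, none of 19 tested was called by limma, and none had an unadjusted p under 0.05. In every soft gel library 4 lay higher and 1 lower, against 4.13% and 4.99% of all genes. At a mean of at least 10 this was 4 and 1 of 16, against 8.71% and 9.75% of genes at that level. The median was 0.15, or -0.76 without scaling, where 1 lay higher and 7 lower. Of all 15144 genes, 173 lay higher and 2017 lower without scaling. Olig1 was 258, 307 and 381 in the primary and 642, 739 and 706 in the soft gel libraries. Olig2 was 48.8, 49.0 and 46.1 against 123, 92.3 and 112. Sox10, which drives the lineage programme together with the Olig factors, was 91.3, 104 and 82.7 against 152, 262 and 295. All of these factors lay above the primary range in each soft gel library, with differences of 1.16 (SE 0.81), 1.16 (SE 0.96) and 1.29 (SE 0.75). Since 1 member of the list lay higher without scaling, at most 1 of these factors kept the separation there. Pdgfra differed by 0.04 (SE 0.91), and Cspg4, which encodes NG2, was 22.7, 30.4 and 35.8 against 16.1, 30.1 and 15 and overlapped. Sox5, a factor that holds OPCs back from differentiating, was the member that lay lower, at 30.1, 14.9 and 12.7 against 3.40, 11.9 and 6.93.

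Genes of later oligodendrocyte stages differed among the soft gel libraries themselves. The summed level of the committed oligodendrocyte list was 500.2 to 598 in the primary libraries and 297, 992 and 2569 in soft gel replicates 1, 2 and 3, so that the soft gel libraries lay both below and above the primary range. In this list 3 of 13 tested members lay higher in every soft gel library and none lower, against 4.13% and 4.99% of all genes. At a mean of at least 10, 2 of 8 lay higher, against 8.71% of genes at that level. No member was called by limma (4 had an unadjusted p under 0.05). The median of 1.32 became 0.57 without soft gel replicate 3 and 0.83 without primary replicate 2. Sirt2, a deacetylase of myelinating cells, was 25.2, 26.3 and 30.7 against 49.7, 108 and 456. Bcas1, a marker of newly forming oligodendrocytes, was 21.9, 7.93 and 31.9 against 22.9, 71.8 and 298. Gpr17, a receptor of the committed stage, was 54.1, 37.9 and 12.5 against 0, 24.8 and 132. Soft gel replicate 3 was the highest and replicate 1 the lowest soft gel library for each of these genes.

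The mature oligodendrocyte list had 3 of 21 tested members higher and 1 lower in every soft gel library, against 4.13% and 4.99% of all genes. At a mean of at least 10 this was 3 and 1 of 9, against 8.71% and 9.75% of genes at that level. The median of 0.83 became 0.00 without soft gel replicate 2 or replicate 3. Cnp, an early myelin enzyme, was 0.400, 11.7 and 7.31 in the primary and 16.6, 48.3 and 64.9 in the soft gel libraries. Cldn11, the tight junction protein of myelin, was 2.46, 0 and 0 against 6.99, 13.7 and 45.3. Mbp, myelin basic protein, was 6.38, 21.6 and 0 against 7.10, 24.6 and 84.0. Cnp and Cldn11 separated the groups and Mbp did not. Mag, an inner myelin glycoprotein, was 0 in all primary libraries against 0, 6.21 and 35.4. Mog, an outer myelin glycoprotein, lay lower on the soft gel, but its exons overlap Zfp57 on the other strand and the authors' counting used no strand option, so the reads of these genes cannot be told apart.

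**Figure D5:**
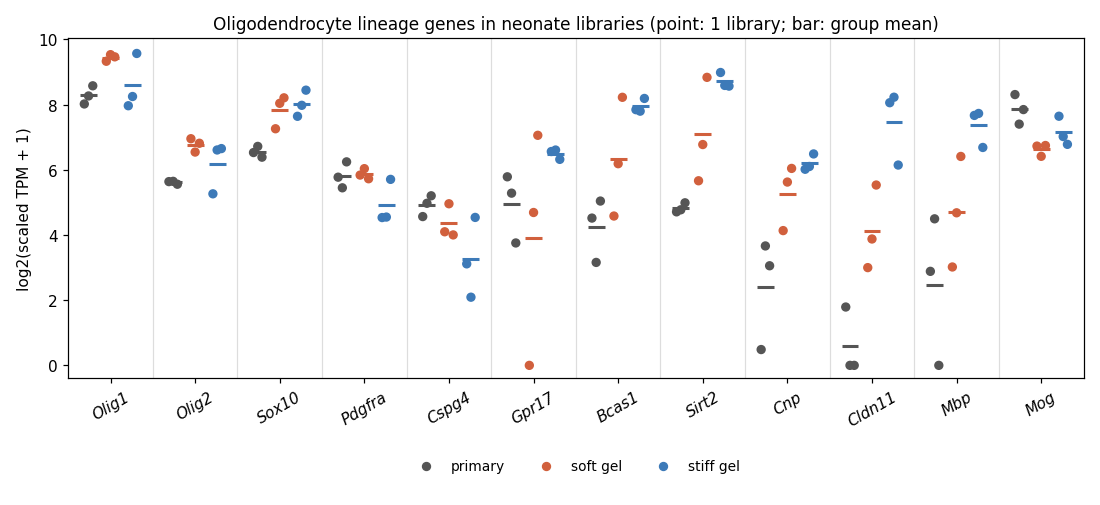
Level of 12 oligodendrocyte lineage genes in each neonate library, on the log2(scaled TPM + 1) axis, with a point for each library and a bar for each group mean, ordered from progenitor to myelin genes. Olig1, Olig2 and Sox10 are above the primary points in each soft gel library, and Pdgfra and Cspg4 overlap. Sirt2 spreads from 49.7 to 456 scaled TPM over the soft gel libraries. Without scaling Pdgfra turns from 0.04 to -0.86, and 1 of 19 OPC identity genes lies above the primary libraries in each soft gel library.

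The annotation also holds the hairpin entry Mir219-1 (chr20:3816158-3816267, rn6), the precursor of miR-219, which is known to promote oligodendrocyte differentiation. It matched the RefSeq gene Mir219a1, whose hairpin lies at chr20:4831580-4831689 on GRCr8, and was singled out after its values were seen. Its 2 mature products are shown with the seed, bases 2 to 8, in capitals.
rno-miR-219a-5p: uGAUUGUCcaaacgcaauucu
rno-miR-219a-1-3p: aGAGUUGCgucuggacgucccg
They occupy bases 21 to 41 and 62 to 83 of the 110-base hairpin and share no seed with each other. The entry was 236, 375 and 319.6 scaled TPM in the primary libraries and 42.3, 58.2 and 43.5 in the soft gel libraries, lower in each (-2.66, SE 1.29, limma adjusted p = 1). On an entry this short those levels stand for a mean coverage of 12.3, 10.4 and 11 reads per base against 1.91, 1.97 and 0.973. Libraries of total RNA read longer transcripts across the locus and not the mature miRNA, so the values say nothing on its level.

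Of 29 genes of the G2 and M phases none lay outside the range of the other group, none was called by limma and none had an unadjusted p under 0.05. Mki67, the proliferation marker, was 7.73, 9.33 and 4.23 in the primary and 13.0, 8.41 and 5.92 in the soft gel libraries. Of 29 S phase genes 3 lay lower in every soft gel library and none higher, against 4.99% and 4.13% of all genes. At a mean of at least 10, 2 of 12 lay lower, against 9.75% of genes at that level. The median of -0.25 turned to 0.30 without soft gel replicate 3. There 3 lay higher and 3 lower, beside 1313 and 1105 of all 15144 genes. The summed level of the S phase genes was 1049.9 to 1443 in the primary libraries. It was 912, 692 and 419 in soft gel replicates 1, 2 and 3, without overlap. Gins2, given next, made up a large part of each primary sum, and the sums of the other members overlapped. Gins2, a subunit of the replicative helicase, was 564, 709 and 575 against 163, 95.6 and 93.6 (-2.42, SE 0.50, limma adjusted p = 0.0895), and was called in 9 of the 21 alternatives. No soft gel library reached the primary range. Of 20 replication histone genes 3 lay lower and none higher, or 3 lower and 2 higher without soft gel replicate 3. With all libraries and a mean of at least 10, 3 of 19 lay lower, against 9.75% of genes at that level. Hist3h2a was 141, 351 and 411 against 93.1, 121 and 105.

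Among the remaining lists, imprinted genes had 4 of 15 higher and 3 lower, insulin, IGF and circadian genes 3 of 22 in each direction, and oxidative stress genes 3 of 23 higher and 1 lower. Ribosome biogenesis and Myc genes had 4 of 24 higher and none lower. Of all genes tested 4.13% lay higher and 4.99% lower. At a mean of at least 10, 3 of 6 imprinted genes lay higher and 1 lower, and 0 and 2 of 8 insulin, IGF and circadian genes. This was 2 and 1 of 13 for oxidative stress and 3 and 0 of 16 for ribosome biogenesis genes, against 8.71% and 9.75% of genes. Txnip, which restrains glucose uptake, was 41.0, 18.1 and 33.2 in the primary and 2.28, 5.46 and 5.65 in the soft gel libraries. Plagl1, an imprinted zinc finger gene, was 4.99, 30.2 and 14.3 against 0 in all soft gel libraries. Ndn, an imprinted gene that restrains division, was 65.1, 19.3 and 56.0 against 169, 224 and 126. These genes separated the groups in either direction, and none was called. In the lists of FGF and PDGF response, growth factor receptors, amino acid stress, p53, lysosome, antigen processing, interferon, collagen, ion channel, Notch and BMP, and Wnt genes, 0 to 2 members lay higher and 0 to 2 lower, none was called by limma, and 0 to 2 had an unadjusted p under 0.05. Some of these counts moved: without soft gel replicate 3, 6 of 18 FGF and PDGF response genes lay higher, and without scaling 7 of 16 growth factor receptors and 10 of 31 lysosome genes lay lower. Of all 15144 genes, 1313 lay higher without soft gel replicate 3 and 2017 lay lower without scaling.

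Stiff gel libraries of neonate cells show which of these values were shared by both cultures. They are set beside the soft gel values and not correlated with them, since both comparisons use the same primary libraries. Ttr and Hba1 were 0 in all stiff gel libraries, and Fos was 15.6, 35.5 and 0. Gpi was 196, 248 and 132, and Rpl13 was 2649, 3992 and 3766. Each of these 5 genes was also called between stiff gel and primary libraries (limma adjusted p from 0.000208 to 0.0236). Dlx1 was 55.4, 62.5 and 44.1, above each soft gel library, and was not called there (-2.89, limma adjusted p = 0.228). Compared with the primary range, 12 of 28 immediate early genes lay lower in every stiff gel library and 1 higher. For neuroblast and neuron genes 3 of 23 lay lower and none higher. Of cholesterol genes 6 of 25 lay higher and 1 lower. In the fatty acid list 5 of 15 lay higher, in glycolysis 6 of 19, and none lower. Over all 15144 genes 592 lay higher and 917 lower on the stiff gel.

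Between soft and stiff gel libraries themselves 0 of 15144 genes were called by limma (0.0%), 438 had an unadjusted p under 0.05, and limma with voom weights on estimated read pairs called 3. Msmo1 was 4.04, 0 and 0 on the stiff gel against 8.40, 14.1 and 29.6 on the soft gel. The summed level of the cholesterol list overlapped between the gels, at 1123 to 1598 on the stiff and 1384 to 1780 on the soft gel. In the primary libraries it was 528 to 663. Mbp was 202, 211 and 102 on the stiff gel, above each soft gel library, and Cldn11 was 265, 298 and 69.8. Sirt2 was 506, 384 and 378 on the stiff gel and was called against the primary libraries (3.89, limma adjusted p = 0.00726). Fth1, the iron storage ferritin heavy chain, was 145, 159.6 and 360.1 in the primary, 503, 517 and 771 in the soft gel and 3553, 3703 and 465 in the stiff gel libraries. Stiff gel replicate 3 stood apart from replicates 1 and 2 in Fth1 and in Hmox1, the haem-degrading enzyme, which was 1622, 1418 and 22.0.

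The aged libraries allow a test of whether the culture difference depended on age. They stand apart in more than 1 respect. Olfactory receptor genes were covered in 77.2%, 3.68% and 2.67% of cases in aged primary replicates 1, 2 and 3. In the aged soft gel replicates they were covered in 66.9%, 39.2% and 30.8% of cases. The microglial gene P2ry12, given below, lay higher in each aged primary library than in any neonate primary library. The part of the coverage in the interaction was not tested beyond leaving out the replicate 1 libraries of the aged groups. The part of other cells in it was not tested. The interaction, the neonate difference minus the aged difference, was called for 2 of 15144 genes (0.0132%; limma), Cst3 and Spp1, and 684 genes had an unadjusted p under 0.05. Cst3 (chr3:143219675-143223544) encodes cystatin C, a secreted protease inhibitor, and Spp1 (chr14:6673686-6679921) encodes osteopontin, a secreted phosphoprotein. Cst3 was 753, 919 and 1649.9 in neonate primary and 2416, 2643 and 897 in neonate soft gel libraries, with overlap. In the aged cells it was 30998, 45978 and 57723 against 2419, 1319 and 1521. The interaction was 5.46 (SE 0.61, limma adjusted p = 2.35e-05). Spp1 was 10.3, 0 and 33.4 against 0, 0 and 17.6 in the neonate cells. In the aged cells it was 0, 19.3 and 0 against 521, 579 and 937, and the interaction was -9.37 (SE 1.62, limma adjusted p = 0.0294). Without the 3 aged replicate 1 libraries the interaction of Cst3 was 5.96 and kept its call, and that of Spp1 kept its direction and lost its call (limma adjusted p = 0.128).

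None of the 6 genes called in the neonate comparison passed the test of the interaction, with limma adjusted p from 0.596 to 0.998. Fos was 772, 2300.1 and 2116 in aged primary and 47.9, 16.6 and 54.5 in aged soft gel libraries. Dlx1 was 26.7, 11.6 and 21.6 in aged primary against 21.5, 15.5 and 10.2 in aged soft gel libraries, so its level in aged primary cells was already near that of cultured neonate cells. Gins2 likewise was 70.2, 135 and 113 against 70.0, 125 and 148.2. P2ry12 was 621, 1164 and 977.8 in aged primary libraries, above each neonate primary library, and 7.34, 6.10 and 0 in aged soft gel libraries.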

How the data were processed

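Total RNA of sorted or cultured rat OPCs was extracted with a Zymo kit and made into libraries with the SMARTer Stranded Total RNA pico kit, per the labels' protocols. The authors quantified annotated transcripts with StringTie 1.3.2d on a UCSC rn6 annotation without a strand option, per the file headers. Trimmomatic, HISAT2 and Bowtie are named in the submitters' processing notes without role or version. The deposited values are TPM per transcript, with ribosomal RNA included, beside FPKM and mean coverage, which were used to estimate read pairs at 300 aligned bases a pair.

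TPM were summed per gene (17337 genes) and divided by a median-of-ratios factor from 1644 genes above 0 in all 18 libraries. The factors were 1.63 to 1.94 in the primary and 0.657 to 1.25 in the soft gel libraries. Genes that reached 1 TPM in 3 or more of the libraries entered the test, made on log2(scaled TPM + 1), computed here from the deposited TPM, with limma 3.58.1 in R 4.3.3 (variance trend, all 6 groups, threshold 0.05 on Benjamini-Hochberg adjusted p). No count test was run as the main test because the values are not counts. The analysis was tested on simulated data. Primary groups came from the sample titles and cultured groups from the source names. Replicate numbers follow the titles, and the file headers number some libraries otherwise (N11, N13 and NO4). No pairing was assumed, because the titles do not state that equal replicate numbers mark a shared animal or day. Correlations of deviations from the group means between soft gel and primary libraries lay between -0.012 and 0.0136. At this depth counting error could hide a shared origin, so they do not decide the question.

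The comparison, the gene lists and the members were chosen with earlier results of these data known. The naming rule took the called genes, the most abundant members of each list described, and Pdgfra, Cspg4, Gpr17, Mbp, Mki67, Fos and Piezo1. Other members, those without overlap and the promoters were chosen after their values were seen. Gene positions are rn6 from the files. Promoters and miRNAs are RefSeq sequences on GRCr8, matched by symbol or synonym. Alternatives varied the pseudocount, filter, scaling, depth, weights, groups fitted, replicate block and libraries included. The alternatives for the lists were added after seeing the data. Some list members are not reported here, although they are counted in their lists.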

Additional observations from a re-analysis of the deposited data

Results flagged for a closer look

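Cst3 and Spp1 stood out because the culture difference itself differed between the ages by a test of the interaction. For Cst3 the neonate difference minus the aged difference was 5.46, higher in the neonate and lower in the aged comparison, with overlap of the neonate libraries and none of the aged ones. The neonate difference of 0.78 turned to -0.15 without scaling, whereas the interaction kept its call in 25 of 26 alternatives, the exception being quantile normalization (2.90, limma adjusted p = 0.0806). For Spp1 the interaction was -9.37, with all aged soft gel libraries above 500 scaled TPM and no neonate soft gel library above 17.6. It kept its direction in all 26 alternatives and its call in 9, with differences from -12.7 to -7.54 and limma adjusted p up to 0.33.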

How the results depend on the processing

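None of the 6 called differences between soft gel and primary libraries changed direction in the 21 alternatives. The count of 6 called genes became 1 with a pseudocount of 0.1, 10 without scaling (all lower, 4 of them among the 6), 5 with quantile normalization (all lower, 4 of them among the 6), 0 when TPM were rescaled without ribosomal entries, 41 with voom weights, 60 with array weights, 12 with only the groups compared, 15 with only the neonate groups, 11 without the broadly covered aged libraries and 3 with thinned libraries, of which 1 was among the 6. Leaving out 1 library gave 0 to 8 calls: 8 without primary replicate 1, 0 without primary replicate 2, primary replicate 3 or soft gel replicate 1, 1 without soft gel replicate 2 and 2 without soft gel replicate 3. The 2 interaction calls became 1 with a pseudocount of 0.1, without a filter, without ribosomal entries, with only the groups compared or with thinned libraries, 0 with quantile normalization, 35 with voom and 24 with array weights, and 1 to 3 on leaving out a library. The 0 calls between gels became 3 with voom, 2 with array weights, 1 with only the groups compared, 3 with only the neonate groups, 1 with thinned libraries and 0 to 1 on leaving out a library (1 without stiff gel replicate 3). With the replicate number as a block the counts were 6, 2 and 0, and the 6 genes were the same. The cause of these shifts was not tested. Over all genes tested, no overlap went from 626 higher and 756 lower to 173 and 2017 without scaling, 587 and 912 with quantile normalization, 510 and 945 without ribosomal entries and 379 and 521 with thinned libraries. Genes called only under an alternative numbered 74, and Gins2, Ccl3 and Fdps were called in at least 5. The depth leaves low genes, such as Piezo1 and most endothelial markers, undecided.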

Other observations

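Some genes outside the lists also separated the groups. They were chosen after their values were seen, and none was called by limma. Lmna (chr2:187842884-187863552), which encodes the A-type lamins of the nuclear envelope, was 0, 0.139 and 5.46 scaled TPM in the primary, 23.0, 11.8 and 25.4 in the soft gel and 25.3, 12.5 and 9.05 in the stiff gel libraries (3.37, SE 0.83, limma adjusted p = 0.304). Both gels lay above the primary range. Anxa6 (chr10:40320581-40375605), a membrane-binding annexin, was 8.32, 4.04 and 0 in the primary, 66.2, 38.1 and 22.9 in the soft gel and 15, 11.3 and 11.5 in the stiff gel libraries. G0s2 (chr13:112004140-112005052), an inhibitor of triglyceride breakdown, was 0 in all primary and all stiff gel libraries and 87.2, 10.5 and 18 in the soft gel libraries. Map7 (chr1:15620665-15748203), a microtubule-associated protein, was 3.38, 0 and 0 against 13.1, 13.0 and 17.9 on the soft gel.

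On the lower side, Dynlrb2 (chr19:49016919-49028400), a dynein light chain of cilia, was 27.2, 19.7 and 58.7 in the primary libraries and 0 in each soft gel and stiff gel library (limma adjusted p = 0.123). Bcl11a (chr14:108826939-108913078), a zinc finger factor of developing neurons, was 20.6, 15.9 and 13.6 in the primary libraries and 0, 0 and 2.03 in the soft gel libraries. Igfbpl1 (chr5:61395407-61410812), a secreted protein of newborn neurons, was 27.3, 26.2 and 14.3 in the primary libraries and 0 in all soft gel libraries. The last pair lay lower in culture beside the neuroblast genes of the report.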
